A study of Mus musculus with 10 samples.

Results

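The 10 genes described here store iron, carry it across membranes or sense it: the ferritins Fth1 and Ftl1, the transferrin receptor gene Tfrc, the transporter genes Slc40a1, Slc11a2, Slc25a37 and Slc25a38, the ferritin receptor gene Ncoa4, and Aco1 and Ireb2, which encode the iron regulatory proteins. They were taken by gene symbol from a fixed list, and all 10 had a row among the 53819 gene symbols of each library. Platelet polyA RNA was compared between P7 mice (the label is taken to mean postnatal day 7) and adult mice of unstated age, with 5 libraries per group (P7 replicates A, B, C, E and I; adult replicates A, B, C, G and H). No genotype, treatment, strain or sex is given for either group, and whether a library is 1 animal or a pool is unstated. The p-values therefore cover the spread among the 5 libraries of a group, part or all of which could be technical. cDNA was amplified from 1 ng of total RNA.

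Cells take up iron as transferrin bound to its receptor, move it out of the endosome through the transporter encoded by Slc11a2, and store what they do not use inside ferritin, a shell built from heavy chains, which oxidise iron, and light chains, which help it to mineralise. NCOA4 binds ferritin and delivers it to the lysosome, where the iron is released. The iron regulatory proteins bind stem-loops called iron-responsive elements (IREs) when iron is scarce: at the 5′ end of ferritin mRNA this blocks translation, and at the 3′ end of transferrin receptor mRNA it protects the message from decay. Platelets have no nucleus and carry the RNA packed into them by their parent megakaryocytes.

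IREs were found in 4 of the 10 messages and are shown because they are the kind of site these proteins bind, with the sequence from the GENCODE M21 transcripts (GRCm38) and the loop in capitals. The search took a C, 5 paired bases, the loop CAGTGN and 5 bases that pair back (G-T pairs allowed), on the transcript strand. Positions are counted from the first base of the transcript.
Fth1, chromosome 19, 5′ UTR, bases 87 to 116: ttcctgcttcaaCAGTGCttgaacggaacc
Ftl1, chromosome 7, 5′ UTR, bases 78 to 107: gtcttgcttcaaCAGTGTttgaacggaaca
Slc40a1, chromosome 1, 5′ UTR, bases 90 to 119: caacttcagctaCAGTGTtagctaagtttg
Tfrc, chromosome 16, 3′ UTR, bases 3315 to 3344: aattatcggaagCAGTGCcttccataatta
Tfrc, 3′ UTR, bases 3694 to 3723: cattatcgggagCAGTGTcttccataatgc
Tfrc, 3′ UTR, bases 3759 to 3788: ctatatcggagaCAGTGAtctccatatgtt
Tfrc, 3′ UTR, bases 3806 to 3835: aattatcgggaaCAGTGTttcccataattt
The elements of Fth1 and Ftl1 have the same paired bases beside the loop and differ in the last base of the loop. Such a stem-loop was present in the longest coding transcript of 271 of 21877 coding genes, 1.24%. No coding transcript of the other members held these letters in this arrangement, which says nothing about other forms of the element. Counts per gene do not show how a message is translated.

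The P7 libraries held 19431863 to 25029931 counts each and the adult libraries 19541997 to 23291269. Genes were tested with edgeR's quasi-likelihood test after a filter on low counts, a gene was called at a Benjamini-Hochberg adjusted p under 0.05 over all 8198 genes tested, and each fold change is the P7 level over the adult one. A gene's level is its CPM, the count set against the library's total, scaled by TMM, which evens out differences in RNA composition. The 14 platelet markers summed to 68545 to 93851 CPM at P7 and 69473 to 94155 CPM in adults by total count, and each was tested, with 5 higher and 2 lower at P7. Among all genes tested, 13.8% were called higher and 13.9% lower. Of 16 markers of splenic and hepatic macrophages, 15 were detected, and they summed to 2.06 to 6.12 CPM at P7 and 1.5 to 4.20 CPM in adults. Neutrophil markers summed to 46.6 to 71.6 CPM at P7 and 14.1 to 36.9 CPM in adults, with Ly6g and Cxcr2 at 0 in all libraries. Trem1 alone made up 54.5 CPM of the mean sum at P7 and 18.4 CPM in adults, and no other neutrophil marker averaged more than 1.56 CPM.

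Of the 10 members, 7 passed the filter and were tested. Ncoa4 and Slc11a2 were higher at P7 and Fth1 and Slc25a38 were lower, so 4 were called, where 27.7% of all genes tested were called (13.8% higher and 13.9% lower). Tfrc and Aco1 missed the threshold narrowly, and Ftl1 had a fold change near 1. Slc40a1, Slc25a37 and Ireb2 had too few counts to be tested. A lower level in bulk RNA can come from fewer cells that carry the message or from less of it per cell, and these cannot be told apart here.

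Fth1, which encodes the ferritin heavy chain, was among the most abundant messages of every library. It stood at 20187, 23635, 19271, 18246 and 33286 CPM in P7 A, B, C, E and I in turn, against 30501, 31078, 41813, 41967 and 48316 CPM in adult A, B, C, G and H. The groups overlapped through P7 I alone, which lay above adult A and B, and the other 4 P7 libraries lay below every adult library. Means were 22925 ± 6136 CPM in P7 platelets and 38735 ± 7716 CPM in adult platelets (5 libraries each, ± SD). Fth1 fell by 0.76 on the log2 scale (SE 0.18, edgeR quasi-likelihood adjusted p = 0.0058). By rank of level among all genes of a library, Fth1 was at 4 to 5 at P7 and at 2 to 4 in adults.

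Ftl1, which encodes the light chain, did not follow the heavy chain. It stood at 4583, 4543, 5553, 4625 and 6365 CPM in P7 A, B, C, E and I in turn, against 5397, 4001, 5342, 4994 and 6010 CPM in adult A, B, C, G and H. The ranges overlapped almost entirely. Means were 5134 ± 807 CPM in P7 platelets and 5149 ± 738 CPM in adult platelets (5 libraries each, ± SD), with a log2 fold change of -0.0043 ± 0.14 (SE, edgeR quasi-likelihood adjusted p = 0.99). Heavy and light chain genes together took 2.85 ± 0.558% of counts in P7 platelets and 4.27 ± 0.706% in adult platelets (5 libraries each, ± SD).

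**Figure D1:**
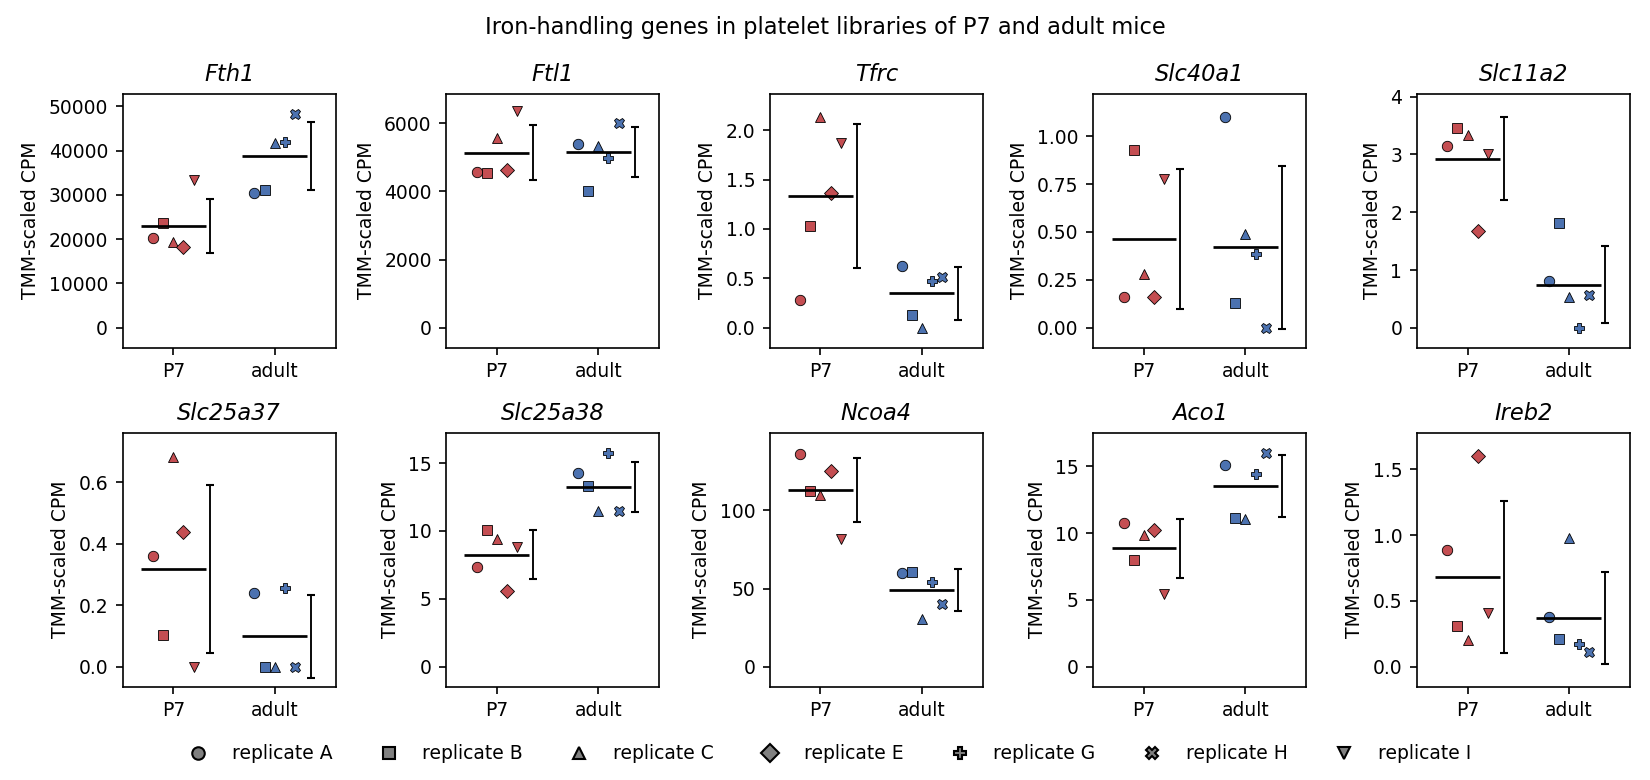
TMM-scaled CPM of each of the 10 genes (vertical axes, linear) in the 5 P7 and 5 adult libraries. Points are libraries, with the marker giving the replicate letter, horizontal lines are group means and bars are 1 SD. Fth1, Slc25a38 and Aco1 sit lower at P7, Ncoa4 and Slc11a2 higher, and the Ftl1 means are 5134 CPM at P7 and 5149 CPM in adults.

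The ratio of heavy to light chain counts was taken within each library, where scaling cancels. On the log2 scale it was 2.14, 2.38, 1.80, 1.98 and 2.39 in P7 A, B, C, E and I in turn, against 2.50, 2.96, 2.97, 3.07 and 3.01 in adult A, B, C, G and H. Every P7 library lay below every adult library, although adult A lay closer to the P7 libraries than to the other adult ones. The mean was 2.14 ± 0.26 in P7 platelets and 2.90 ± 0.23 in adult platelets (5 libraries each, ± SD), a difference of -0.76 (two-sided exact permutation p = 0.0079, the smallest that 5 against 5 can give, and 0.024 adjusted over 3 ratios). Per kilobase of transcript, the level of Fth1 was 4.64 ± 0.805 times that of Ftl1 at P7 and 7.85 ± 1.13 times in adults (5 libraries each, ± SD). Here and below, lengths are those of the first GENCODE M21 transcript of a gene, 929 nt for Fth1 and 968 nt for Ftl1.

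**Figure D2:**
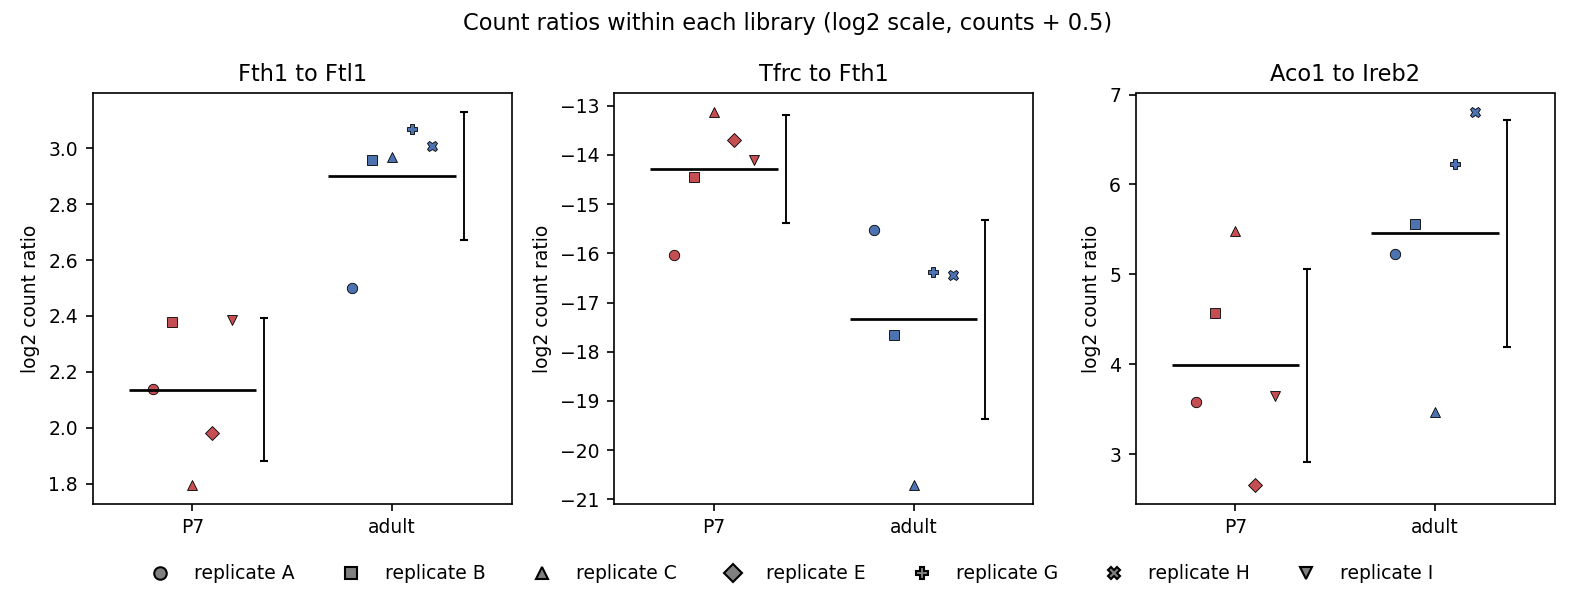
Log2 ratios of counts within each library (vertical axes, 0.5 added to each count) for Fth1 to Ftl1, Tfrc to Fth1 and Aco1 to Ireb2. Points are the 5 P7 and 5 adult libraries, lines are means and bars are 1 SD. The Fth1 to Ftl1 groups do not overlap, with all P7 libraries at or below 2.39 and all adult libraries at or above 2.50.

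Processed copies of the ferritin genes can take or lend reads. Fth1-ps held 0.294 to 0.356% of the count of Fth1 in the 10 libraries, and its log2 fold change was -0.81 ± 0.20 (SE, edgeR quasi-likelihood adjusted p = 0.0085). Ftl1-ps1 and Ftl1-ps2 each held at most 0.105% of the count of Ftl1. With all such rows added to their parent genes, the log2 fold changes were -0.76 for Fth1 and -0.0036 for Ftl1.

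Ncoa4, which encodes the receptor that brings ferritin to the lysosome, had the smallest p of the 7 tested members. It stood at 136, 113, 109.7, 125 and 81.9 CPM in P7 A, B, C, E and I in turn, against 60.2, 60.5, 30.6, 54.1 and 39.99 CPM in adult A, B, C, G and H. Every P7 library lay above every adult one. The log2 fold change was 1.20 ± 0.21 (SE, edgeR quasi-likelihood adjusted p = 0.00069), with means of 113 ± 20.3 CPM in P7 platelets and 49.1 ± 13.3 CPM in adult platelets (5 libraries each, ± SD). Groups that do not overlap were also found for Slc25a38 and Aco1, 3 of the 7 tested with 1 higher and 2 lower, where 19.8% of all genes tested had groups apart (10.1% higher and 9.76% lower).

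Of the uptake genes, Slc11a2 encodes DMT1, which carries iron out of the endosome and across the plasma membrane. It was low, at 78, 67, 83, 42 and 66 counts in P7 A, B, C, E and I in turn, against 17, 42, 11, 0 and 10 counts in adult A, B, C, G and H. In scaled levels P7 E, at 1.68 CPM, lay below adult B, at 1.81 CPM, and the other P7 libraries lay above every adult one, at 3.01 to 3.46 CPM. The count of 0 in adult G allowed up to 0.129 CPM. Means were 2.93 ± 0.717 CPM in P7 platelets and 0.745 ± 0.663 CPM in adult platelets (5 libraries each, ± SD). Its log2 fold change was 1.96 ± 0.61 (SE, edgeR quasi-likelihood adjusted p = 0.027). The call was lost without any 1 of P7 A, B and C and adult A, C and H, at log2 fold changes of 1.85 to 1.97 (adjusted p = 0.0527 to 0.0570 in the same edgeR test). Over all fits without 1 library the log2 fold change ran from 1.59 to 2.58, the highest without adult B (adjusted p = 0.0086), and limma-voom gave 2.87 (adjusted p = 0.017).

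Tfrc, the receptor gene for transferrin, had 7, 20, 53, 34 and 41 counts in P7 A, B, C, E and I in turn, against 13, 3, 0, 11 and 9 counts in adult A, B, C, G and H. Its scaled levels were 0.282 to 2.13 CPM at P7 and at most 0.620 CPM in adults, and P7 A alone lay within the adult range. A count of 0 allowed up to 0.149 CPM in adult C, taken as 3 counts of the total, which covers counting error only. The log2 fold change of Tfrc was 1.93 ± 0.70 (SE) and missed the threshold, at an edgeR quasi-likelihood adjusted p = 0.0522. It passed under 6 of 23 alternatives, among them the fit without P7 A (log2 fold change 2.18, adjusted p = 0.032 in the same edgeR test) and DESeq2 (1.93, adjusted p = 0.020), and over all alternatives adjusted p-values ran from 0.020 to 0.60.

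In other cells the receptor and the heavy chain are held in opposite directions by the iron regulatory proteins. These act on message decay for Tfrc but on translation for Fth1, and counts do not show translation. The log2 ratio of Tfrc to Fth1 counts was -14.28 ± 1.09 in P7 platelets and -17.34 ± 2.03 in adult platelets (5 libraries each, ± SD), a difference of 3.06 (two-sided exact permutation p = 0.016, adjusted 0.024). P7 A, at -16.03, lay within the adult range of -20.71 to -15.53, whose lowest value is set by the count of 0 in adult C. Without any 1 of P7 B, C, E and I the ratio no longer passed, at differences of 2.78 to 3.10 (exact permutation adjusted p = 0.056 to 0.060), and without adult C the difference was 2.22 (exact permutation adjusted p = 0.024).

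Of the transporter genes of the mitochondrion, Slc25a38 encodes a carrier that brings in glycine for heme synthesis. It stood at 7.36, 10.1, 9.41, 5.56 and 8.81 CPM in P7 A, B, C, E and I in turn, against 14.3, 13.3, 11.5, 15.8 and 11.5 CPM in adult A, B, C, G and H. Every P7 library lay below every adult one. Slc25a38 fell by 0.69 on the log2 scale (SE 0.21, edgeR quasi-likelihood adjusted p = 0.022), with means of 8.24 ± 1.80 CPM in P7 platelets and 13.3 ± 1.84 CPM in adult platelets (5 libraries each, ± SD). Slc25a37 encodes mitoferrin 1, the iron importer that red cell precursors depend on, and was close to the floor. It had 9, 2, 17, 11 and 0 counts in P7 A, B, C, E and I in turn, against 5, 0, 0, 6 and 0 counts in adult A, B, C, G and H. Fitted with no filter, Slc25a37 had a log2 fold change of 1.59 ± 1.10 (SE, edgeR quasi-likelihood adjusted p = 0.35), so a difference was not detectable at this depth.

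Slc40a1 encodes ferroportin, the iron exporter of macrophages and gut cells. It had 4, 18, 7, 4 and 17 counts in P7 A, B, C, E and I in turn, against 23, 3, 10, 9 and 0 counts in adult A, B, C, G and H, with the groups covering the same range. With no filter its log2 fold change was 0.08 ± 0.78 (SE, edgeR quasi-likelihood adjusted p = 0.97), and in the fits without 1 library that kept it the log2 fold change ran from -0.21 to 0.30.

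Aco1 encodes IRP1, an aconitase of the cytosol that binds IREs once it loses its iron-sulfur cluster. It stood at 10.8, 7.96, 9.89, 10.2 and 5.43 CPM in P7 A, B, C, E and I in turn, against 15.1, 11.1, 11.1, 14.4 and 16.0 CPM in adult A, B, C, G and H. The highest P7 library, A, lay just below the lowest adult library, C, at 11.07 CPM. The log2 fold change of Aco1 was -0.61 ± 0.22 (SE, edgeR quasi-likelihood adjusted p = 0.0504). It passed under 7 of 24 alternatives, among them DESeq2 at -0.63 (adjusted p = 0.022) and limma-voom at -0.62 (adjusted p = 0.045), and the fits without adult B or adult C, at -0.69 in each case (adjusted p = 0.048 and 0.043 in edgeR's test). Over all alternatives adjusted p-values for Aco1 ran from 0.022 to 0.29.

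Ireb2 encodes IRP2, which is broken down when iron is plentiful. It had 22, 6, 5, 40 and 9 counts in P7 A, B, C, E and I in turn, against 8, 5, 20, 4 and 2 counts in adult A, B, C, G and H. In scaled levels P7 E was highest, at 1.6 CPM, followed by adult C at 0.975 CPM and P7 A at 0.885 CPM, and the groups overlapped. With no filter the log2 fold change was 0.85 ± 0.70 (SE, edgeR quasi-likelihood adjusted p = 0.43). The log2 ratio of Aco1 to Ireb2 counts was 3.99 ± 1.08 in P7 platelets and 5.46 ± 1.27 in adult platelets (5 libraries each, ± SD), a difference of -1.47 (two-sided exact permutation p = 0.10, adjusted 0.10). Without adult C, the adult library richest in Ireb2, the difference was -1.96 (exact permutation adjusted p = 0.024).

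Levels of different members were compared per kilobase of transcript. At P7 the means were 24677 scaled CPM per kilobase for Fth1 and 5304 for Ftl1, then 33.8 for Ncoa4, 4.60 for Slc25a38, 2.31 for Aco1 and 0.967 for Slc11a2. In adults they were 41695 for Fth1, 5319 for Ftl1, 14.7 for Ncoa4, 7.41 for Slc25a38, 3.53 for Aco1 and 0.246 for Slc11a2, the same order. Ranges of neighbours did not overlap at either age down to Slc11a2. The remaining 4 genes, Tfrc, Slc40a1, Ireb2 and Slc25a37, had means of at most 0.273 per kilobase at both ages and ranges that overlapped each other, and in adults the range of Slc11a2 overlapped theirs too.

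**Figure D3:**
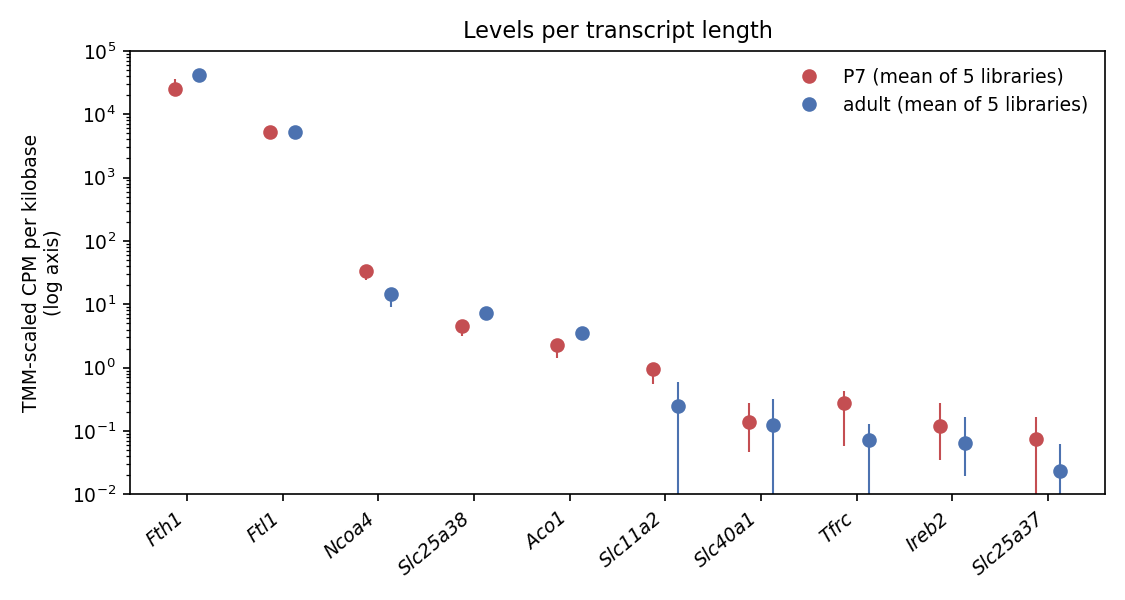
TMM-scaled CPM per kilobase of transcript (vertical axis, log scale) for the 10 genes, ordered by adult level. Points are means of 5 libraries at P7 and in adults, and vertical lines run from the lowest to the highest library, reaching the lower edge where a library had 0 counts. The lowest ferritin mean is 5304, and no other member exceeds a mean of 33.8.

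Iron genes outside the 10 were read from a list of 60, of which 28 were tested. Of these 4 were higher and 5 lower at P7, and 19 were not called, with a median log2 fold change of 0.07 against 0.05 over all genes tested. Over all genes tested 27.7% were called, 13.8% higher and 13.9% lower. The iron chaperone genes Pcbp1 and Pcbp2, whose proteins hand iron to ferritin, were both lower, by 0.55 (SE 0.16) and 0.96 (SE 0.19) on the log2 scale. Their means were 18.9 ± 2.75 CPM in P7 platelets and 27.8 ± 2.10 CPM in adult platelets for Pcbp1, and 7.41 ± 1.25 CPM in P7 platelets and 14.4 ± 1.25 CPM in adult platelets for Pcbp2 (5 libraries each, ± SD), with no overlap between the groups for either. Without P7 C, Pcbp1 had a log2 fold change of -0.50 and was not called (edgeR quasi-likelihood adjusted p = 0.0519). Snx3, a sorting nexin that recycles the transferrin receptor, fell by 0.50 (SE 0.14), to 217 ± 24.2 CPM at P7 against 308 ± 35.9 CPM in adults (5 libraries each, ± SD). Its groups overlapped, with P7 I, at 256 CPM, above adult G, at 245 CPM.

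Of the genes of heme transport and breakdown that were tested, Slc48a1 was higher and Hmox1 and Cd163 were lower. Hmox2, Blvra and Blvrb were not called, at log2 fold changes of -0.27, 1.0 and 0.05. Slc48a1, which encodes a heme transporter of the lysosome, averaged 79.8 ± 15.2 CPM in P7 platelets and 40.1 ± 5.36 CPM in adult platelets (5 libraries each, ± SD), and rose by 0.99 (SE 0.17, edgeR quasi-likelihood adjusted p = 0.00071) with no overlap. Hmox1, the heme oxygenase gene that frees iron from heme, had 26, 33, 46, 18 and 48 counts in P7 A, B, C, E and I in turn, against 154, 78, 122, 87 and 33 counts in adult A, B, C, G and H. Its log2 fold change was -1.57 ± 0.39 (SE, edgeR quasi-likelihood adjusted p = 0.0083), and adult H lay within the P7 range. Cd163, the receptor gene for hemoglobin bound to haptoglobin and a macrophage marker, was at 0.301 ± 0.263 CPM in P7 platelets and 1.84 ± 0.857 CPM in adult platelets (5 libraries each, ± SD), with a log2 fold change of -2.58 ± 0.66 (SE, edgeR quasi-likelihood adjusted p = 0.0097), or -3.48 over replicates A to C alone (adjusted p = 0.020). By total count Cd163 averaged 0.309 CPM in P7 platelets and 1.79 CPM in adult platelets, which is most of the adult macrophage sum. Of the 16 macrophage markers, C1qc, Marco, Timd4, Spic, Mertk, Cd5l and Clec4f were at 0 in all adult libraries, and Clec4f in all 10. The other 14 detected markers were too low to be tested. Their means were each larger at P7, but several lay under the floor of 3 counts, 0.120 to 0.154 CPM at P7. Timd4, for 1, averaged 0.00799 CPM at P7 and was above 0 in P7 C alone. All genes fitted with no filter also leaned to P7, at a median log2 fold change of 0.24, so the shared direction cannot be read as a trait of these markers. Means for Csf1r were 0.738 CPM in P7 platelets and 0.207 CPM in adult platelets. For Cd68 they were 0.621 CPM in P7 platelets and 0.421 CPM in adult platelets. The part of macrophage RNA in these differences was not tested.

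Outside the naming rule, and chosen after their values were seen, Fam210b, Hif1a and Slc25a39 were also higher, at log2 fold changes of 1.40, 1.21 and 0.89. Their edgeR quasi-likelihood adjusted p-values were 0.020, 0.030 and 0.0497 in turn, and the groups of Fam210b and Slc25a39 overlapped. Hif1a had 27 to 32 counts per library at P7 and 7 to 16 in adults. The remaining 32 of the 60 genes were too low to be tested, and 7 had 0 counts in all 10 libraries, among them the hepcidin genes Hamp and Hamp2. The transferrin receptor 2 gene Tfr2 had at most 3 counts in a library. The gene Steap3, whose product reduces endosomal iron in red cell precursors, had at most 4.

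Of 5 other messages known to hold an IRE, 1 was higher, with a median log2 fold change of 0.21 over the 5. This was Cdc42bpa, a kinase gene of the cytoskeleton, at 42.7 ± 8.97 CPM in P7 platelets and 22.6 ± 5.76 CPM in adult platelets (5 libraries each, ± SD) and a log2 fold change of 0.91 ± 0.20 (SE). Of 24 genes of iron-sulfur cluster assembly 14 were tested, with 2 higher, 1 lower and a median of 0.11. Beside the counts of both lists, 27.7% of all genes tested were called (13.8% higher and 13.9% lower). Nfs1, whose product supplies the sulfur, rose by 1.36 (SE 0.38) and the mitochondrial chaperone gene Hspa9 by 1.28 (SE 0.42), while Nubp2, of the cytosolic assembly scaffold, fell by 0.53 (SE 0.16). Counts per library were low for Nfs1, at 48 to 105 at P7 and 7 to 36 in adults. For Hspa9 they were 24 to 96 at P7 and 9 to 33 in adults. Hspa9 was not called without any 1 of P7 A, C and E and adult A and H (1.05 to 1.28, edgeR quasi-likelihood adjusted p = 0.0593 to 0.103). Nubp2 was not called without P7 C (log2 fold change -0.48, adjusted p = 0.0588 in the same edgeR test). Called genes of this list numbered 1 without P7 C and 5 without adult B.

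**Figure D4:**
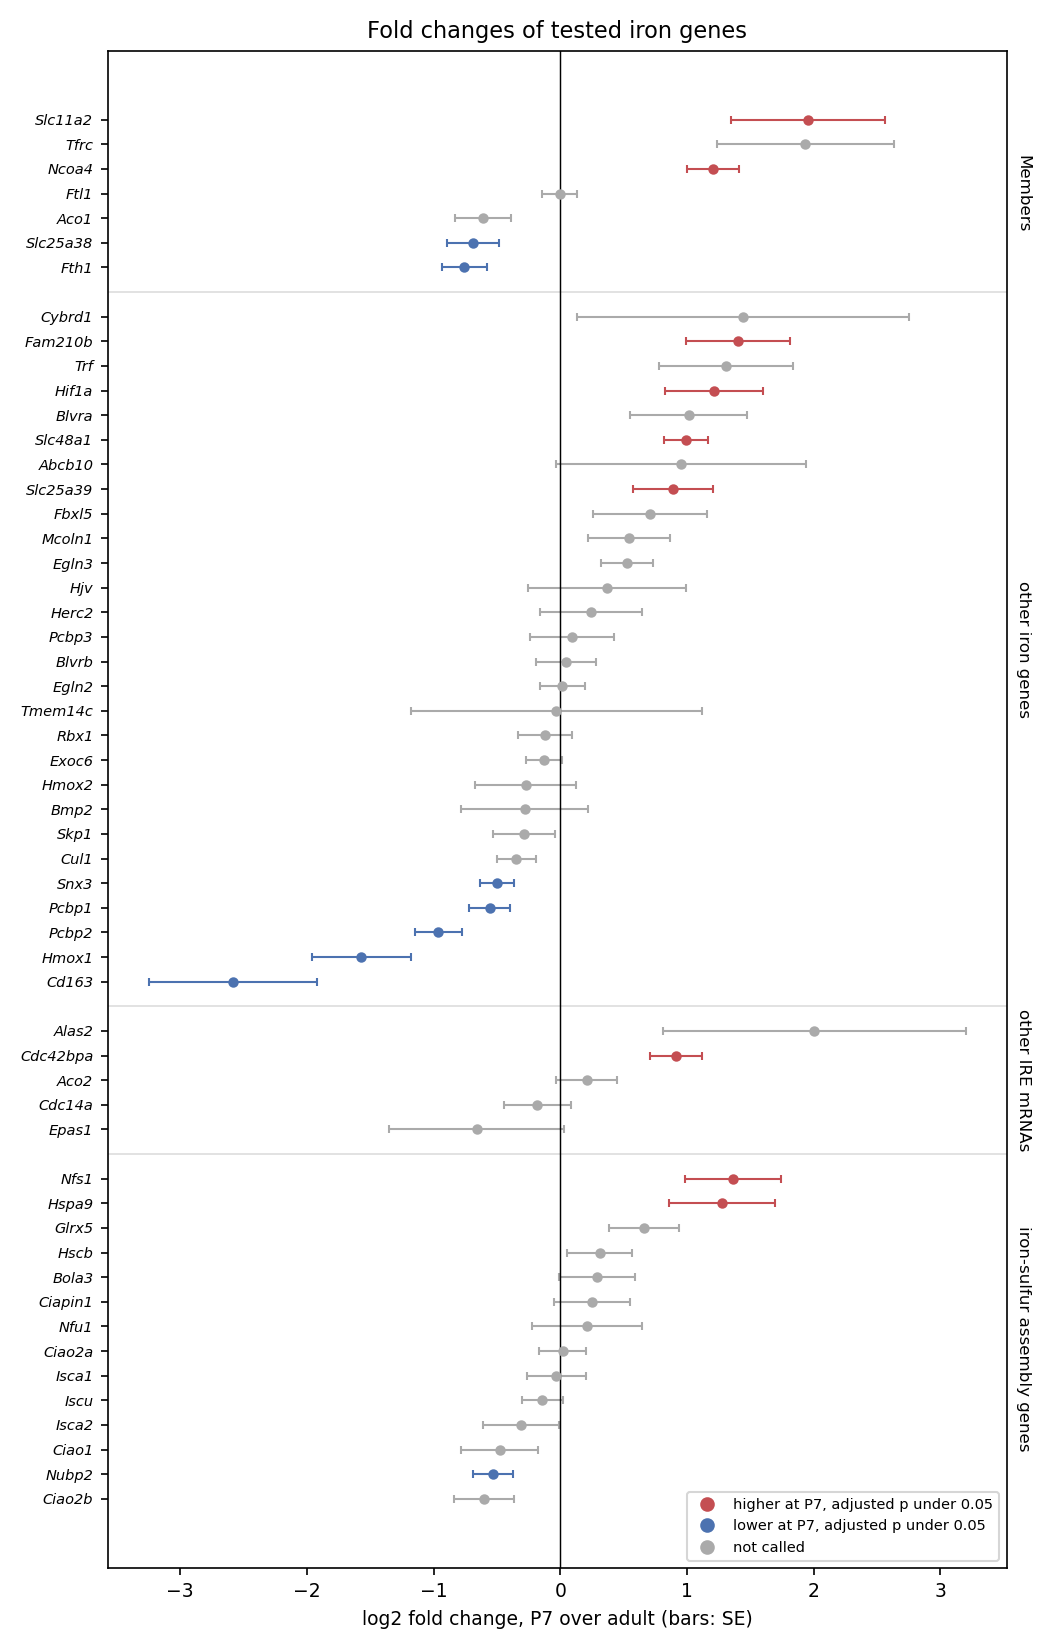
Log2 fold changes, P7 over adult (horizontal axis), of the tested members and of the tested genes of 3 further iron lists, with SE as bars (n = 5 libraries per group). Red points were called higher at P7, blue points lower, and grey points were not called. Each list but the IRE messages has called genes on both sides of 0.

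Red cell precursors and young red cells use most of these genes, so erythroid markers were read beside them. Of 30 markers 18 were tested, and 6 were higher and 0 lower at P7, among them Fech, the last enzyme of heme synthesis, at 105 ± 29.3 CPM in P7 platelets and 25.6 ± 7.24 CPM in adult platelets (5 libraries each, ± SD). Over all genes tested, 13.8% were called higher and 13.9% lower. The 30 markers summed to 10889 to 12924 CPM at P7 and 10196 to 11980.5 CPM in adults by total count. No marker was at 0 in all 10 libraries, and the defining markers Klf1, Slc4a1, Ermap, Kel and Add2 were at 0 in all adult libraries. Alas2, which encodes the erythroid enzyme that starts heme synthesis and whose message carries an IRE, had 61, 24, 273, 18 and 6 counts in P7 A, B, C, E and I in turn, against 41, 23, 19, 0 and 0 counts in adult A, B, C, G and H.

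The mean log2 CPM of the 18 tested erythroid markers was 4.22 to 5.0 at P7 and 3.06 to 3.84 in adults, and age group explained 75.1% of its variance. With it as a covariate, 1.48% of all genes tested were called, and 0 of the 7 members in edgeR's quasi-likelihood test (1 at an unadjusted p under 0.05, with adjusted p-values of 0.25 to 0.93). In that fit the log2 fold changes were -0.22 ± 0.31 for Fth1, 0.79 ± 0.41 for Ncoa4, 0.27 ± 1.06 for Slc11a2 and -0.63 ± 0.42 for Slc25a38 (SE). Erythroid RNA and age cannot be told apart in these libraries.

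**Figure D5:**
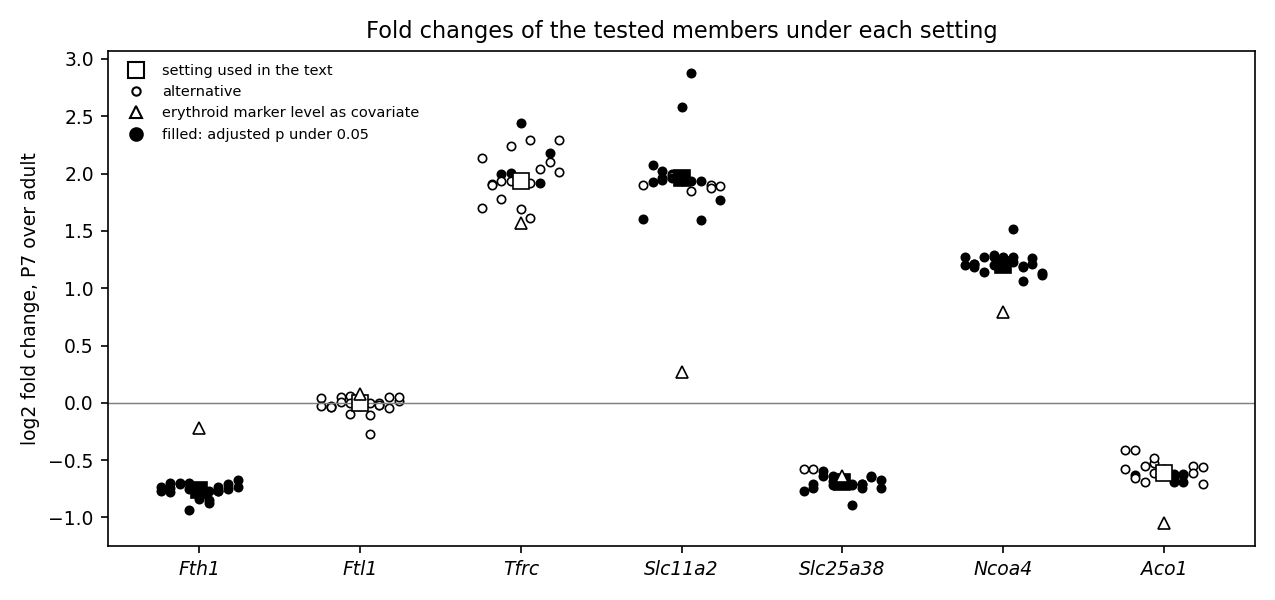
Log2 fold changes, P7 over adult (vertical axis), of the 7 tested members under the setting used in the text (squares), the alternatives (circles) and the fit with the erythroid marker level as covariate (triangles). Filled symbols have an adjusted p under 0.05. Fth1 stays between -0.94 and -0.67 outside the triangle, and Ncoa4 between 1.06 and 1.52.

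The genes most like each tested member in pattern were sought by the root mean square difference of log2 CPM, centred on the gene's mean over the 10 libraries, over the genes averaging 20 CPM or more. For Fth1 these were the G protein gene Gng11, at a difference of 0.14 and a log2 fold change of -0.83, and Selenok, at 0.15 and -0.65. For Ftl1 they were Chek2 and Anapc16, at 0.11 and 0.12. For Ncoa4 they were Xk and the thrombospondin gene Thbs1, at 0.23 each, with log2 fold changes of 0.97 for Xk and 1.26 for Thbs1. Slc25a38 was nearest to Wdr45 and Inpp5b, at 0.16 each, and Aco1 to Bicd2, at 0.17, and Bap1, at 0.20. The low members had no close match, with differences of 0.72 and 0.75 between Tfrc and Galnt7 and Snx5, and of 0.89 and 0.90 between Slc11a2 and Cyba and Uqcrq.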

How the data were processed

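The authors deposited a table of whole-number read counts by gene symbol for each library, not normalized. The tools named are Salmon 1.5.2, Subread 2.0.1 (featureCounts), STAR 2.7.9a and fastp 0.23.1, per the submitters' processing notes. The sources used here do not give genome build, annotation or strand setting, so reads of overlapping genes cannot be told apart, and 92.8% of the row symbols were found in GENCODE M21, from which sequences, lengths and GC content were taken.

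Genes were filtered with edgeR's filterByExpr (minimum count 10, minimum total 15), scaled with TMM and tested with glmQLFit and glmQLFTest with robust dispersions and age group as the only term (edgeR 4.0.16, limma 3.58.1, DESeq2 1.42.0, R 4.3.3). SE is the log2 fold change divided by the root of the F statistic. Ratios took counts plus 0.5 and a two-sided exact permutation test. The fits were tested on simulated data. The members and lists were chosen with earlier results of these data known. Named genes were the members, up to 6 called genes per list (or the 2 most abundant), and the 2 nearest patterns per tested member, passing over gene models, Rik clones, pseudogenes and mitochondrial genes, and defining markers of erythroid cells and macrophages. Alternatives were other scalings and filters, DESeq2, limma-voom, leaving out each library, the replicate letter as a block, the erythroid marker level as covariate, erythroid markers left out and ferritin copies added; a GC correction and scaling without Fth1 were added after seeing the data. Further marker lists, for monocytes, neutrophils, B, T and NK cells, hepatocytes and endothelium, had 5 genes higher and 3 lower of 21 tested beside platelet, erythroid and macrophage lists. The share called over all genes tested was 27.7%.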

Additional observations from a re-analysis of the deposited data

Results flagged for a closer look

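Within groups of 5 libraries, the highest or lowest value was set apart from the other 4 by Dixon's criterion in 8 of 74 groups of named genes and ratios (10.8%), where chance gives about 1 in 20. That rate holds for independent values from a normal distribution. Some of these genes were picked for similar patterns in the same libraries, so an excess over it cannot be judged. Of the members, Slc11a2 was set apart in P7 E, at 1.68 CPM against 3.01 to 3.46 CPM in the other P7 libraries. The log2 ratio of Fth1 to Ftl1 was set apart in adult A, at 2.50 against 2.96 to 3.07 in the other adult libraries. Snx3 was low in adult G, at 245 CPM against 315 to 337 CPM in the other adult libraries.

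Of the genes nearest in pattern, 3 were set apart in P7 I, the P7 library richest in Fth1. Selenok was at 52.8 CPM there against 30.6 to 35.2 CPM in the other P7 libraries, Anapc16 at 35.0 CPM against 26.1 to 27.3 CPM, and Bicd2 was low at 341 CPM against 575 to 656 CPM. In adult H, the library richest in Fth1 of all, Gng11 was at 14898 CPM against 11291 to 12324 CPM in the other adult libraries, and Wdr45 was low at 45.4 CPM against 51.4 to 53.9 CPM. Gng11 and Selenok were picked for a pattern like that of Fth1 in these same libraries. Their high values where Fth1 is high are therefore not a separate observation.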

How the results depend on the processing

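Across the alternatives, 2272 genes were called in the fit used in the text, 1843 to 2394 without 1 library, 1215 at a mean of at least 10 CPM, 1228 at an adjusted p under 0.01 and 121 with the erythroid covariate. Called members numbered 3 to 5 without 1 library, 2 at an adjusted p under 0.01 (Ncoa4 and Fth1) and 0 with the covariate. Called genes among the other iron genes numbered 6 to 10 without 1 library, 5 at 10 CPM, 4 at 0.01 and 0 with the covariate. The IRE messages had 1 call without any 1 library and 0 with the covariate. Iron-sulfur assembly genes had 1 to 5 calls without 1 library, 1 at 10 CPM, 0 at 0.01, 0 with the covariate and 1 over replicates A to C alone. The cause was not tested. Without 1 library, differences were -0.86 to -0.68 for the log2 ratio of Fth1 to Ftl1, 2.22 to 3.52 for Tfrc to Fth1 and -1.96 to -1.13 for Aco1 to Ireb2. The median log2 fold change of all genes was 0.05, and 0.11 with upper quartile scaling, with library size alone and, added after seeing the data, with the GC trend removed, 0.24 with no filter and -0.014 at 10 CPM. Of the members, the genes named by rule in the iron lists or as nearest in pattern, and the ratios, none that was called changed direction under any alternative run. Marker genes, Fth1-ps, Fam210b, Hif1a and Slc25a39 were not followed through the alternatives. Slc25a38 was not called over replicates A to C (log2 fold change -0.58 with and without the replicate block). Depth limits Tfrc, Slc40a1, Slc25a37, Ireb2 and Slc11a2, all under 100 counts in every library.

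Replicate letters A to C occur at both ages, and the labels do not say what a letter stands for. Deviations from the group means correlated at -0.14, 0.16 and 0.048 for letters A, B and C (1951 genes). Over all pairs of a P7 and an adult library, these correlations ran from -0.22 to 0.23. Whether libraries of the same letter share more than the letter cannot be told from 3 pairs. With the letter as a replicate block 1416 genes were called, against 1886 in the same 6 libraries without it, and 4 other iron genes, 0 IRE messages and 0 iron-sulfur genes. The block gave differences of -0.70 for Fth1 to Ftl1, 3.43 for Tfrc to Fth1 and -0.21 for Aco1 to Ireb2, where 3 pairs allow no exact p under 0.25.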

Other observations

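A few processed copies of these genes had counts in some libraries only. Ncoa4-ps held 13.2% of the count of Ncoa4 in P7 E and 11.7% in P7 I, and 22.0% in adult C, against 1.07 to 2.04% in the other 7 libraries. In counts, these were 412 in P7 E, 210 in P7 I and 138 in adult C. Ftl2-ps had 302 counts in P7 E and at most 5 in any other library, while Ftl1 in P7 E, at 4625 CPM, lay within the range of the other P7 libraries. Hepatocyte markers summed to 7.31 to 12.1 CPM at P7 and 19.7 to 35.0 CPM in adults, with Alb, Apob and Serpina1a at 0 in all 10 libraries. Afp alone made up 6.99 CPM of the mean sum at P7 and 26.3 CPM in adults, while Trf averaged 1.31 CPM in P7 platelets and 0.493 CPM in adult platelets.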
